A study of Homo sapiens with 60 samples.

Results

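Transcript levels of 10 immediate early genes were followed by RNA-seq in HepG2 cells, a line from a human hepatocellular carcinoma that keeps many hepatocyte traits. The genes were taken by name, with earlier results of these data known: FOS, FOSB, FOSL1, JUN, JUNB, EGR1, IER2, IER3, ATF3 and MYC. They are 10 of the 60675 genes in the table, and all 10 were among the 16517 with enough counts to test. The 60 libraries form 20 groups of 3, each treated for 24 h. Of these, 18 groups received a water extract of a medicinal herb at a high, medium or low dose. The high, medium and low doses were 500, 100 and 20 µg/mL for Schisandrae Fructus, Aucklandiae Radix, Zizyphi Semen, Longan Arillus and Liriopis seu Ophiopogonis Tuber. Those of Polygalae Radix were 450, 90 and 18 µg/mL. Another group received 10 µM wortmannin, an inhibitor of phosphoinositide 3-kinases, and the last received the vehicle. The vehicle is 0.1% DMSO in the labels and 2% DMSO in the series' design text. The labels give no DMSO content for wortmannin or the extract groups, so whether the solvent was the same in all groups is not known. All groups are of the same line and the same treatment time.

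Immediate early genes are switched on by growth factors and stress without new protein synthesis, mostly through the ERK, JNK and p38 kinases acting on SRF, the ternary complex factors and CREB. FOS and JUN family proteins pair into AP-1, EGR1 is a zinc finger factor, and MYC pairs with MAX to drive ribosome and metabolic genes. Their induction is typically a matter of minutes to hours, and in liver cells they are best known from regeneration and from stress. At 24 h the levels measured here are therefore those of a late time. In bulk RNA, a change in the share of cells that express a gene and a change in RNA per cell cannot be told apart.

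The promoters below are shown because the core of the cyclic AMP response element, bound by CREB and ATF family proteins, recurs in them. They are RefSeq sequences on GRCh38.p14, taken from the 250 bases before the RefSeq start and kept to the part outside the annotated transcript. Capitals mark TGACG or, on the opposite strand, CGTCA, and in EGR1 also the CArG boxes to which SRF binds.
FOS, chr14:75278578-75278773, plus strand: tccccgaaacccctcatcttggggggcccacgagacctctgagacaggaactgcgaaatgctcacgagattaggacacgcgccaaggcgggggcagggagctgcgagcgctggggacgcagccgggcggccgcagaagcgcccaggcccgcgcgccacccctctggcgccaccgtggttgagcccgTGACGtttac
FOSB, chr19:45467746-45467994, plus strand: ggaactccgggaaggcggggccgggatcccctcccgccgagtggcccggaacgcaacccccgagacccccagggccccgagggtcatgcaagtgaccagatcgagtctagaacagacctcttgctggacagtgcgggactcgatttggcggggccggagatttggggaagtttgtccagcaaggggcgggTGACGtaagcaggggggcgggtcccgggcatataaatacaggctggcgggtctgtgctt
JUNB, chr19:12791236-12791485, plus strand: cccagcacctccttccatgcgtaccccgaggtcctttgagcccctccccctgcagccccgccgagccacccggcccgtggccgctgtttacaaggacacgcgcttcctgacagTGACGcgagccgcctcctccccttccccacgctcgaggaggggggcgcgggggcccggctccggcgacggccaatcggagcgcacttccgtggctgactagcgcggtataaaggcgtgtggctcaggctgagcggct
EGR1, chr5:138465229-138465478, plus strand: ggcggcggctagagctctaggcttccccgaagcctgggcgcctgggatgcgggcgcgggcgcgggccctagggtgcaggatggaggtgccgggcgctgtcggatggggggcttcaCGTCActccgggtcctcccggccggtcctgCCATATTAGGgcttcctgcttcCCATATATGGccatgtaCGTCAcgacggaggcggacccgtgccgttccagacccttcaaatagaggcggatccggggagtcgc
IER2, chr19:13150161-13150410, plus strand: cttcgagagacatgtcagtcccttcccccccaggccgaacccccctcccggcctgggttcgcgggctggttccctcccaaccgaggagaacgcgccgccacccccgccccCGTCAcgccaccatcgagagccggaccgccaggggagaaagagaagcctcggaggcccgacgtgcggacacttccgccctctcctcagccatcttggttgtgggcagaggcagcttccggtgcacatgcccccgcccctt
Promoters were matched for 7 of the 10 members, 8 promoters in all, and not for FOSL1, IER3 and MYC. Both strands were searched. The core was found in 6 of the 8 member promoters, against 21.2% of all 34788 promoters of the same length. It began at base -64 from the RefSeq start in FOS, -60 in FOSB, -123 in JUN, -137 in JUNB and -140 in IER2, and at -135 and -66 in EGR1. Within these windows the CArG box was found only in EGR1, at -105 and -83, against 1.17% of all promoters. Bases further than 250 from the start were not searched, so sites there would be missed. The AP-1 site TGANTCA was in 0 of the 8, against 6.59% of all promoters, and the GC box GGGCGG in 5, against 42.6%. TATAA was found in 4, against 19%. A match describes letters only, and the windows of ATF3 held no such core.

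All 10 members are protein-coding genes on GRCh38, per GENCODE release 29. FOS lies at chr14:75278774-75282230, EGR1 at chr5:138465490-138469315 and IER3 at chr6:30743199-30744554. FOSB, JUNB and IER2 share chromosome 19, at chr19:45467995-45475179, chr19:12791496-12793315 and chr19:13150415-13154908. JUN and ATF3 are on chromosome 1, at chr1:58780788-58784327 and chr1:212565334-212620777, FOSL1 is at chr11:65892049-65900573 and MYC is on chromosome 8.

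Libraries held 20.2 to 36.4 M counts. Levels are in CPM, counts scaled to the size of the library, after TMM scaling, and n = 3 libraries in each group throughout. The labels do not say whether the 3 libraries came from separate cultures, and the p-values therefore reflect a spread that may be technical in part or whole. All 8 hepatocyte markers were detected, and the leukocyte genes PTPRC and CD3E had 0 counts in all 60 libraries. The 5 leukocyte markers summed to 1673 to 1705 CPM under high-dose Schisandrae, 1473 to 1580 CPM under wortmannin and 979 to 1020 CPM in the vehicle, nearly all of it LYZ. The 6 fibroblast and stellate markers summed to 18.2 to 20.7 CPM under high-dose Schisandrae, 19.9 to 23 CPM under wortmannin and 10.7 to 14.8 CPM in the vehicle, mostly PDGFRB, with DCN and LUM at 0 in all 9 libraries. Mitochondrial mRNA made up 9.55 to 11.4% of counts under high-dose Schisandrae, 10.5 to 11.3% under wortmannin and 13 to 16.1% in the vehicle. The part of these values in the results was not tested. Sample codes fall into 5 sets of unstated meaning. The vehicle and wortmannin each have their own set, and Liriopis shares one with Schisandrae, so every comparison with the vehicle crosses sets. The slope of a library's deviations on gene GC content ranged over -0.224 to 0.145 under high-dose Schisandrae, 0.297 to 0.462 under wortmannin and -1.043 to 0.115 in the vehicle.

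High-dose Schisandrae raised 8 of the 10 members over the vehicle and lowered 0, and wortmannin lowered 6 and raised 1. DESeq2 likewise called 0 lower under Schisandrae, and 0 were lower there at an unadjusted p under 0.05. FOS, FOSB, FOSL1, JUN, JUNB, EGR1, IER3 and ATF3 rose under Schisandrae, and FOS, FOSL1, JUN, EGR1, IER3 and MYC fell under wortmannin, while IER2 rose. A call is an edgeR quasi-likelihood test with Benjamini-Hochberg adjusted p under 0.05 over all 16517 genes. Of all tested genes, 8.4% were called higher and 7.25% lower under high-dose Schisandrae, and 16.4% higher and 16.2% lower under wortmannin. The members' median log2 fold change was 0.81 under Schisandrae and -0.36 under wortmannin, and that of all tested genes was -0.01 and 0.01. Both comparisons share the 3 vehicle libraries. The plot of fold changes shows the pattern member by member.

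**Figure D1:**
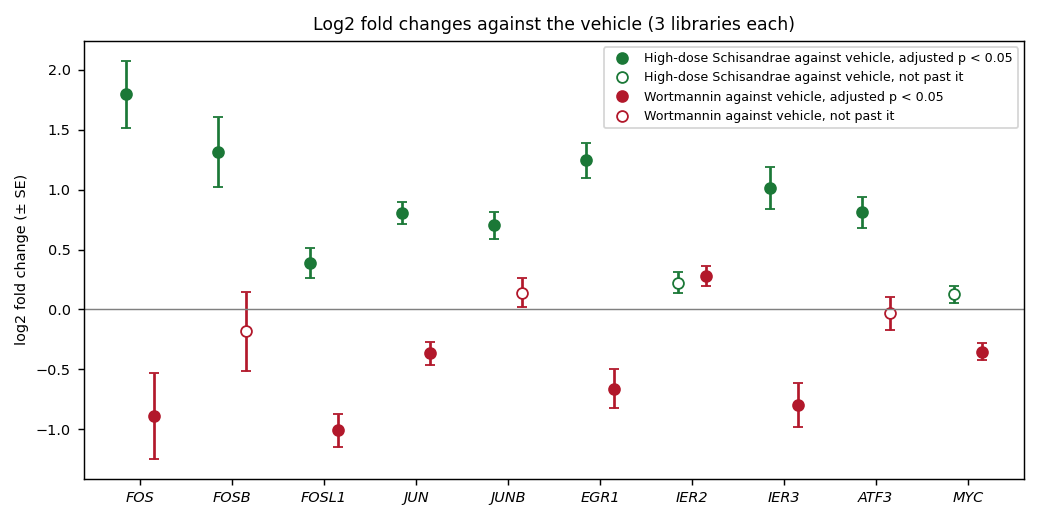
Log2 fold change against the vehicle (y axis, ± SE, 3 libraries a group) of the 10 members (x axis) under high-dose Schisandrae (green, left) and wortmannin (red, right). Filled points have an adjusted p under 0.05; FOS stands highest under Schisandrae at 1.80 and FOSL1 lowest under wortmannin at -1.01.

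Among the FOS family, whose proteins need a JUN partner to bind DNA stably, FOS had 2.04, 2.16 and 2.24 CPM under high-dose Schisandrae. It had 0.227, 0.255 and 0.484 CPM under wortmannin and 0.440, 0.800 and 0.623 CPM in the vehicle. The Schisandrae libraries stood clear of all others, and wortmannin and vehicle overlapped. FOS was higher by 1.80 ± 0.28 on the log2 scale under Schisandrae (SE; edgeR adjusted p = 3.5e-06) and changed by -0.89 ± 0.36 under wortmannin (adjusted p = 0.049). These are small counts, 46, 56 and 48 reads under Schisandrae, 5, 6 and 13 under wortmannin and 11, 17 and 13 in the vehicle. The wortmannin call was lost on leaving out vehicle replicate 2 or 3 (adjusted p = 0.25 and 0.087) or wortmannin replicate 1 or 2 (0.18 and 0.16).

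FOSB, whose short splice form lacks the activation domain, had 1.55, 1.19 and 1.63 CPM under high-dose Schisandrae, 0.590, 0.426 and 0.522 CPM under wortmannin and 0.559, 0.330 and 0.863 CPM in the vehicle. Only the Schisandrae libraries stood apart. The log2 fold change was 1.31 ± 0.29 under Schisandrae (edgeR adjusted p = 0.00076), and -0.18 under wortmannin (adjusted p = 0.72). FOSB lies within ERCC1 on the opposite strand with no shared exon, and ERCC1 itself changed by 0.08 (adjusted p = 0.67).

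FOSL1, which encodes FRA-1 and is itself an AP-1 target, had 21.4, 24.8 and 24.8 CPM under high-dose Schisandrae. Under wortmannin it had 8.53, 8.73 and 9.65 CPM, against 18.1, 17.8 and 18.5 CPM in the vehicle. The 3 groups did not overlap. Its fall under wortmannin, -1.01 ± 0.14 on the log2 scale, had an edgeR adjusted p of 8.1e-08. Its rise under Schisandrae was 0.39 ± 0.13 (adjusted p = 0.028), and that call was lost on leaving out any 1 vehicle library (adjusted p = 0.053 to 0.080) or Schisandrae replicate 2 or 3 (0.10 and 0.094). FOSL1 was also lower in the 18 low-dose libraries than in the vehicle, by -0.43 ± 0.10 (adjusted p = 0.005), a contrast in which 3.34% of genes were called lower. That call was lost without vehicle replicate 1 (adjusted p = 0.061).

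In the JUN family, JUN, the main DNA-binding partner of FOS, had 40.1, 44.7 and 46.7 CPM under high-dose Schisandrae, 19.7, 21.4 and 17.3 CPM under wortmannin and 23.7, 26.2 and 25.5 CPM in the vehicle. None of the 3 groups overlapped. The log2 fold change was 0.80 ± 0.10 under Schisandrae (edgeR adjusted p = 5.9e-09) and -0.37 ± 0.10 under wortmannin (adjusted p = 0.003).

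JUNB, a weaker activator that can oppose JUN, had 10.3, 9.98 and 11.2 CPM under high-dose Schisandrae, 7.58, 6.60 and 7.08 CPM under wortmannin and 6.39, 6.54 and 6.33 CPM in the vehicle. Here the wortmannin libraries lay just above the vehicle and not below it. JUNB was 0.70 ± 0.12 higher under Schisandrae (edgeR adjusted p = 8e-06) and differed by 0.14 under wortmannin (adjusted p = 0.40). Its exons overlap those of HOOK2 on the opposite strand, and the strand setting of the counting is not given in the sources used here. HOOK2 changed by -0.08 under Schisandrae (adjusted p = 0.63) and rose by 0.45 under wortmannin (adjusted p = 5.8e-05).

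EGR1, whose promoter above holds both the response element cores and the CArG boxes, had 21.1, 24.0 and 22.6 CPM under high-dose Schisandrae. It had 6.90, 6.00 and 5.25 CPM under wortmannin and 9.91, 9.13 and 9.54 CPM in the vehicle. Again the 3 groups were apart, with Schisandrae highest and wortmannin lowest. The log2 fold change was 1.25 ± 0.15 under Schisandrae (edgeR adjusted p = 6.7e-09) and -0.66 ± 0.17 under wortmannin (adjusted p = 0.0014).

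IER3, a regulator of survival and ERK signalling and not a DNA-binding factor, had 74.4, 110 and 119 CPM under high-dose Schisandrae. Under wortmannin it had 30.6, 29.6 and 26.2 CPM, against 45.5, 49.8 and 54.9 CPM in the vehicle. The spread was widest within Schisandrae, yet the lowest of its libraries exceeded every vehicle library. IER3 was 1.01 ± 0.18 higher under Schisandrae (edgeR adjusted p = 2.7e-05) and changed by -0.80 ± 0.19 under wortmannin (adjusted p = 0.00066). Exons of the antisense gene IER3-AS1 overlap it, with a median of 12.1 counts, so reads of both may be mixed.

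IER2, a nuclear protein linked to transcription, had another order, with 27.4, 29.7 and 31.1 CPM under high-dose Schisandrae, 29.5, 29.9 and 32.3 CPM under wortmannin and 21.8, 28.3 and 25.6 CPM in the vehicle. Wortmannin libraries were all above the vehicle, and Schisandrae libraries overlapped it. It rose by 0.28 ± 0.09 under wortmannin (edgeR adjusted p = 0.0085), a call lost with the GC slope as a covariate (0.15, adjusted p = 0.075) or without vehicle replicate 1 (0.18, adjusted p = 0.14) or wortmannin replicate 3 (0.24, adjusted p = 0.058). Under Schisandrae the value was 0.22 ± 0.09 (adjusted p = 0.070).

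ATF3, a stress-induced repressor of the ATF/CREB family, had 5.19, 5.20 and 6.02 CPM under high-dose Schisandrae, 3.04, 3.06 and 3.02 CPM under wortmannin and 3.28, 2.78 and 3.26 CPM in the vehicle. Only Schisandrae stood apart, and wortmannin lay within the vehicle's range. The log2 fold change was 0.81 ± 0.13 under Schisandrae (edgeR adjusted p = 4.3e-06) and -0.03 under wortmannin (adjusted p = 0.89).

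MYC had 210, 235 and 241 CPM under high-dose Schisandrae, 165, 168 and 159 CPM under wortmannin and 208, 214 and 207 CPM in the vehicle. Wortmannin was below every other library of the 3 groups, and Schisandrae overlapped the vehicle. The change under wortmannin was -0.35 ± 0.07 (edgeR adjusted p = 0.00014), and under Schisandrae 0.13 ± 0.07 (adjusted p = 0.26).

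The contrast of high-dose Schisandrae with wortmannin itself, which uses no vehicle library, called 9 of the 10 members higher under Schisandrae and 0 lower, against 18.4% and 17.3% of all tested genes. Like every comparison with wortmannin it crosses code sets, so treatment and set cannot be told apart in it. FOS differed most, by 2.69 ± 0.31 on the log2 scale (edgeR adjusted p = 6.7e-10), then EGR1 by 1.91 ± 0.15 and IER3 by 1.81 ± 0.18. FOSB, FOSL1 and JUN differed by 1.5, 1.40 and 1.17, ATF3 by 0.84, JUNB by 0.56 and MYC by 0.48. IER2 differed by -0.06 ± 0.08 (adjusted p = 0.64).

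Against the vehicle, edgeR called none of the 10 members at 20 or 100 µg/mL Schisandrae, where 0.0727% and 2.98% of all genes were called, and 8 at 500 µg/mL. At an unadjusted p under 0.05 there were 0 members at 20 and 2 at 100 µg/mL, and DESeq2 called 0 and 1. Between doses, 8 members were higher at 500 than at 100 µg/mL, where 3.52% of all genes were, and 8 were higher at 500 than at 20 µg/mL, where 5.19% were. At 100 against 20 µg/mL edgeR called none of the 10 (0.254% of all genes were called). For that step 3 were higher at an unadjusted p under 0.05, and DESeq2 called 1. EGR1 had 6.97, 8.40 and 8.68 CPM at 20 µg/mL, 9.26, 7.90 and 8.88 CPM at 100 µg/mL and 21.1, 24.0 and 22.6 CPM at 500 µg/mL. The low and medium doses overlapped and the high dose did not. FOS showed the same form, with 0.392, 0.458 and 0.417 CPM at 20 µg/mL, 0.358, 0.475 and 0.484 CPM at 100 µg/mL and 2.04, 2.16 and 2.24 CPM at 500 µg/mL. The means of all members but FOSB rose at each step. Those of FOSL1 were 15.2, 16.8 and 23.7 CPM from low to high dose, and those of JUNB 6.45, 7.65 and 10.5 CPM. JUN had 23.0, 23.3 and 26.6 CPM at 20 µg/mL and 28.8, 32.1 and 32.3 CPM at 100 µg/mL. That step of 0.36 ± 0.10 was not past the threshold (edgeR adjusted p = 0.11).

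**Figure D2:**
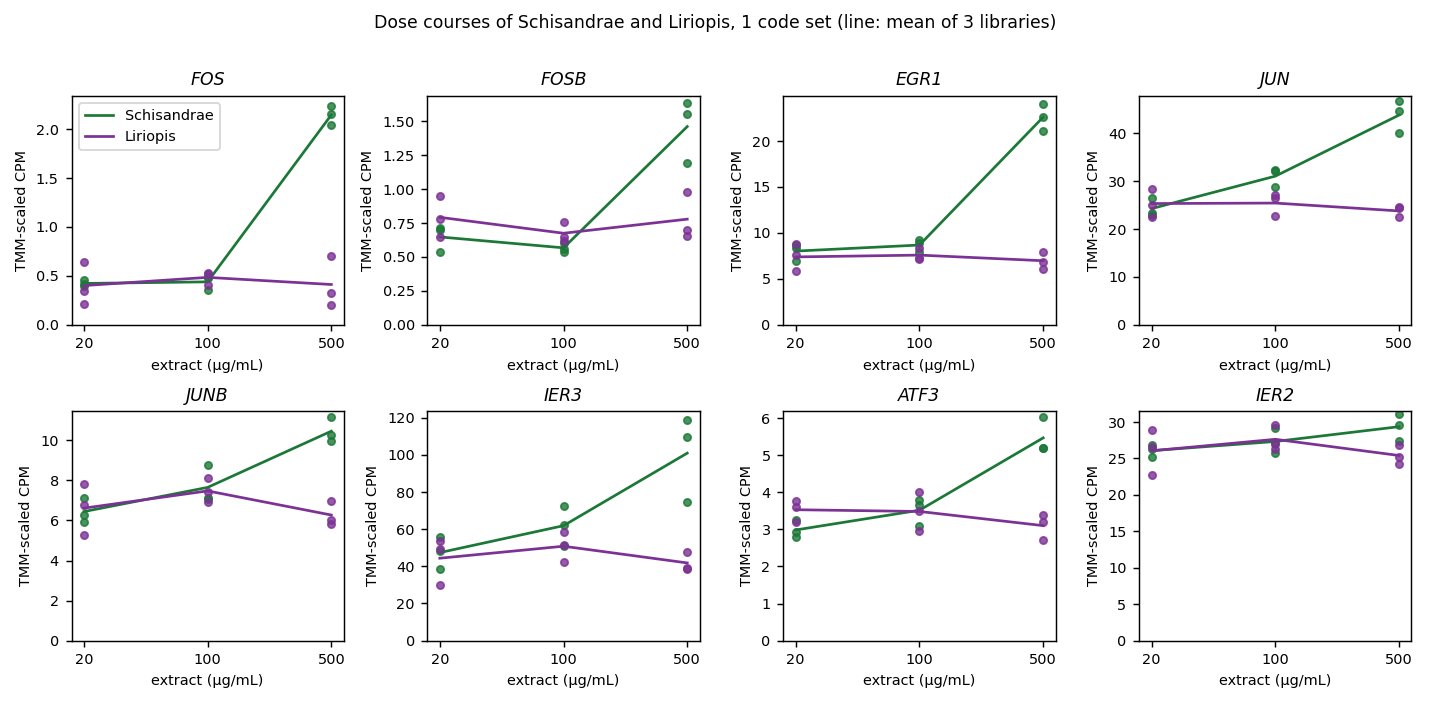
TMM-scaled CPM (y axis) of 8 members at 20, 100 and 500 µg/mL (x axis, evenly spaced) of Schisandrae (green) and Liriopis (purple), which share a code set; points are libraries and lines join the means of 3. At 500 µg/mL the Schisandrae libraries of EGR1 lie at 21.1 to 24.0 CPM, and those of Liriopis at 6.11 to 7.95 CPM.

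Within the same code set and at the same dose, Schisandrae was higher than Liriopis for 9 of the 10 members, against 5.86% of all genes. FOS was higher by 2.39 ± 0.30 on the log2 scale and EGR1 by 1.70 ± 0.15 (edgeR adjusted p = 3.4e-08 and 3.5e-12), and IER2 was the exception at 0.21 ± 0.09 (adjusted p = 0.12). Leaving out 1 library of either group gave 7 to 9 calls, with FOSB and MYC the genes whose calls were lost. The difference between the high against low dose effects of Schisandrae and Liriopis was called for 7 members, all larger under Schisandrae, against 2.69% of all genes. Against the mean of the other 5 high-dose groups, 9 members were higher (7.42% of all genes), all but MYC at 0.10 ± 0.06 (adjusted p = 0.28). For 4 members all Schisandrae libraries lay above all libraries of those groups. High-dose Polygalae alone was not tested against Schisandrae, and ATF3 overlapped there, at 5.19 to 6.02 CPM under Schisandrae and 4.65 to 5.55 CPM under Polygalae. Against Aucklandiae alone 7 were higher (7.59% of all genes), and FOSL1, JUN and MYC were not. That count fell to 4 without Schisandrae replicate 3 or without Aucklandiae replicate 1.

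Against the 18 low-dose libraries, a second set of comparators from 3 code sets, high-dose Schisandrae raised 9 members (9.65% of all genes called higher). Wortmannin lowered 5 of the 10 and raised 1, where 19.2% of all genes were lower and 19.5% higher. The 5 were FOSL1, JUN, EGR1, IER3 and MYC, the same as with the vehicle apart from FOS, which changed by -0.43 ± 0.29 (edgeR adjusted p = 0.27). Without wortmannin replicate 3 the calls fell to 4, with EGR1 at -0.32 and IER2 at 0.18 (adjusted p = 0.12 and 0.077). FOSL1 fell by 0.58 here, a smaller size than against the vehicle.

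Across the other 17 extract groups 12 of 170 tests against the vehicle were past the threshold, 8 higher and 4 lower. Over those 17 contrasts together 3% of all gene tests were higher and 2.67% lower. The 12 calls became 6 without vehicle replicate 1, 7 without the 4 libraries of lowest GC slope and 23 with no filter on low counts. Aucklandiae at its high dose raised JUN, JUNB and IER3, where 13.6% of all genes were higher. JUN had 34.3, 41.6 and 41.2 CPM, up by 0.64 ± 0.10, and IER3 58.1, 78.6 and 78.7 CPM, up by 0.52 ± 0.18 (edgeR adjusted p = 8e-07 and 0.025). Polygalae at its high dose raised JUN, JUNB, EGR1 and ATF3, where 10.2% of all genes were higher. ATF3 had 4.65, 4.83 and 5.55 CPM there, up by 0.68 ± 0.13, and EGR1 11.7, 13 and 14.1 CPM, up by 0.43 ± 0.15 (adjusted p = 8.2e-05 and 0.034). Low-dose Polygalae raised JUNB by 0.41 ± 0.12 (adjusted p = 0.0094), where 8.63% of all genes were higher. FOSL1 was lower in medium- and low-dose Polygalae, low-dose Zizyphi and low-dose Aucklandiae, where 5.73%, 7.01%, 0.951% and 2.26% of all genes were lower. Between the high and low doses of the other 5 extracts, 4 of 50 tests were higher and 0 lower, where 1.84% of all gene tests were higher. All 4 were in Aucklandiae (7.77% of its genes higher), in FOSL1, JUN, IER3 and MYC, by 0.62, 0.64, 0.63 and 0.22. Without vehicle replicate 1 the calls on JUNB and IER3 in high-dose Aucklandiae, JUN and EGR1 in high-dose Polygalae, and FOSL1 in low-dose Zizyphi and low-dose Aucklandiae were lost (edgeR adjusted p = 0.061 to 0.11). The heat map of all treatments places these calls.

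**Figure D3:**
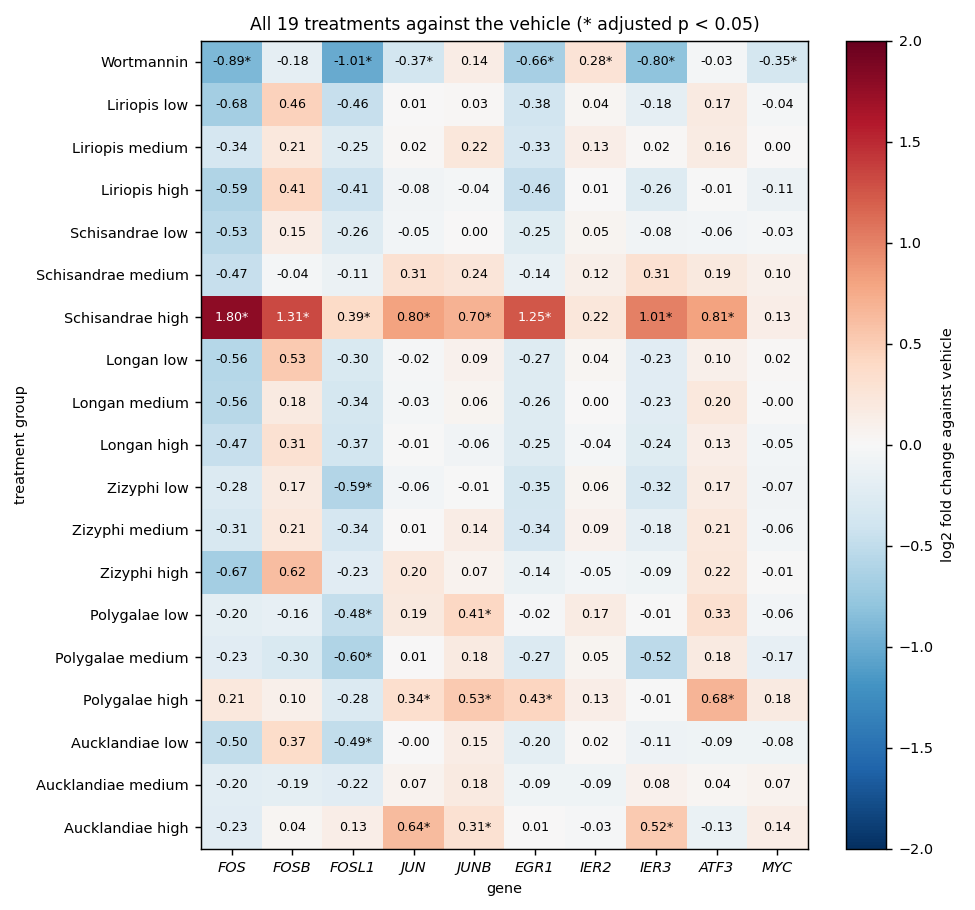
Log2 fold change against the vehicle (colour and printed value) of the 10 members (columns) in the 19 treatments (rows), with an asterisk where the edgeR adjusted p is under 0.05. Red in the high-dose Schisandrae row stands out, with FOS at 1.80. The wortmannin row is mostly blue, with FOS at -0.89 on few reads, and JUNB and IER2 are positive there.

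Across all 20 groups high-dose Schisandrae had the highest mean for 8 members, the second for IER2 and the third for MYC, and wortmannin had the lowest mean for FOS, FOSL1, JUN, EGR1, IER3 and MYC and the highest for IER2. Each of the other 57 libraries lay below all 3 high-dose Schisandrae libraries for FOS, FOSB, JUNB and EGR1, as did 56 for FOSL1 and ATF3 and 55 for JUN and IER3. For IER2 and MYC 42 and 33 did. All 57 libraries of other groups were above all 3 wortmannin libraries for FOSL1 and JUN, 56 for MYC, 55 for IER3, 50 for EGR1 and 26 for FOS. Below the first place the ranges of neighbouring groups mostly overlapped, with FOS next highest in high-dose Polygalae at 0.703 ± 0.193 CPM and EGR1 at 12.9 CPM in the same group.

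**Figure D4:**
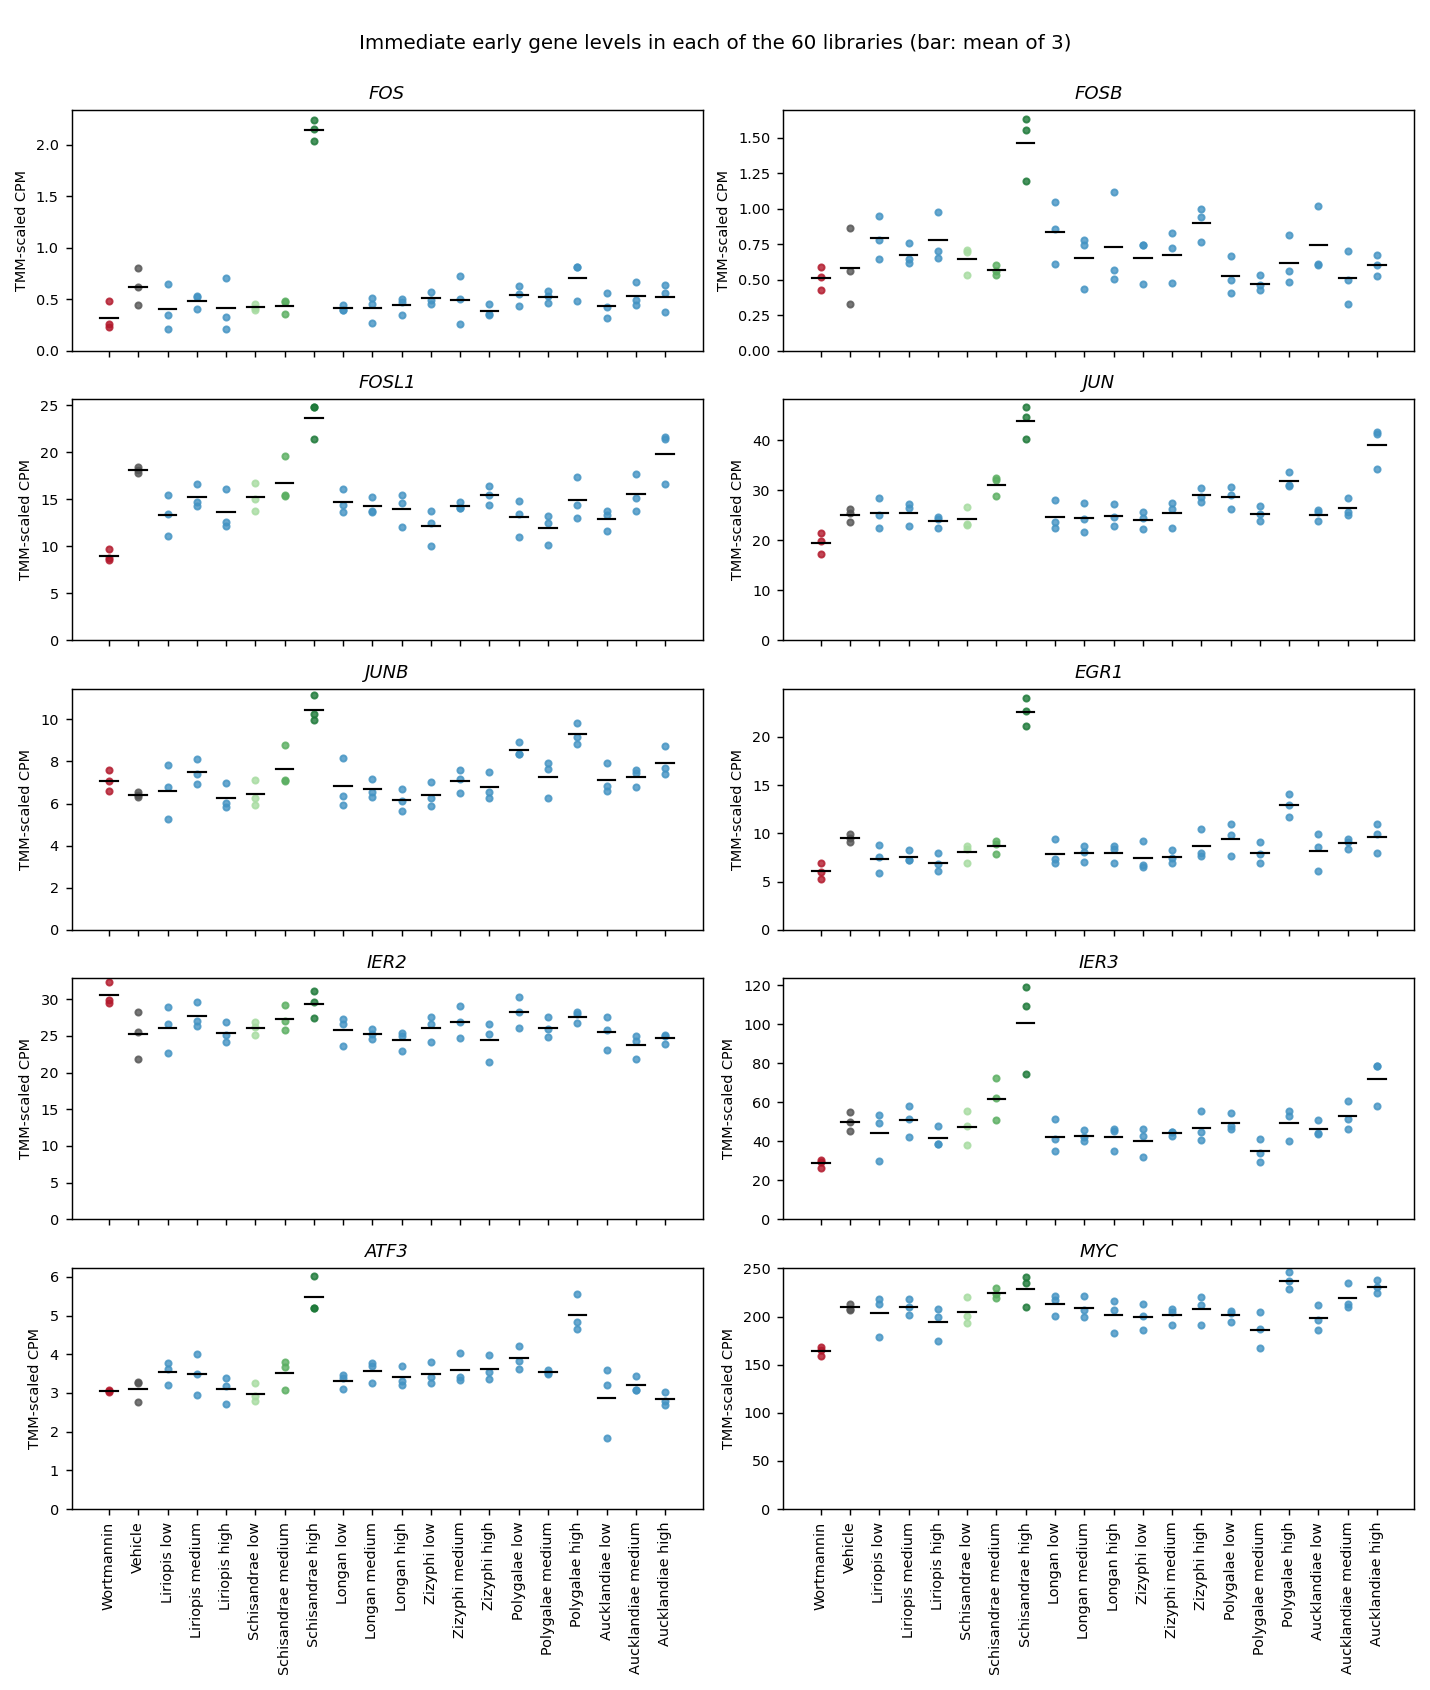
TMM-scaled CPM (y axis, from 0) of each member in each of the 60 libraries, by group (x axis: wortmannin, vehicle, then 6 extracts at low, medium and high dose); points are libraries and bars are means of 3. High-dose Schisandrae libraries of FOS, at 2.04 to 2.24 CPM, lie above every other library, of which the highest has 0.818 CPM.

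Per kilobase of exon, MYC and IER3 were the most abundant members, at 76.2 and 74.5 CPM per kb under high-dose Schisandrae. Under wortmannin they had 54.7 and 21.2 CPM per kb, and in the vehicle 69.8 and 36.9 CPM per kb. FOSL1, JUN, IER2, EGR1 and JUNB had 12.5, 12.4, 9.56, 7.20 and 5.75 CPM per kb under Schisandrae. ATF3 had 1.36, FOS 0.663 and FOSB 0.263 CPM per kb in the same libraries. FOS and FOSB, with the largest log2 rises under Schisandrae, were thus the scarcest of the 10 transcripts.

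Of the rest of the AP-1 family, 9 of 11 genes were tested and 4 rose and 2 fell under high-dose Schisandrae (median 0.27 on the log2 scale). Among all genes 8.4% rose and 7.25% fell there, and under wortmannin 16.4% rose and 16.2% fell. FOSL2, a FOS family member, averaged 30.3 ± 1.56 CPM under Schisandrae and 28.7 ± 1.09 CPM under wortmannin, against 19.1 ± 1.28 CPM in the vehicle (SD, n = 3). It rose in both, by 0.67 ± 0.08 and 0.59 ± 0.08 (edgeR adjusted p = 3e-09 and 3e-08), and was the only one of the 9 called under wortmannin. MAFF, MAFK and MAFG, small MAF proteins that lack an activation domain, rose under Schisandrae by 0.76, 0.49 and 0.32 (edgeR adjusted p = 2.4e-07, 0.0093 and 0.032). ATF7 and BATF2 fell by 0.20 and 0.44 (adjusted p = 0.0078 and 0.043). JUND, ATF2 and JDP2 were not called, at 0.27, -0.04 and -0.14.

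Other immediate early genes were tested for 17 of 25. Under high-dose Schisandrae 13 rose and 0 fell (median 0.47), against 8.4% and 7.25% of all genes. Under wortmannin 2 rose and 3 fell (median -0.08), near the 16.4% and 16.2% of all genes. BHLHE40, a repressor of the clock and of metabolism, averaged 39.1 ± 5.86 CPM under Schisandrae against 19.9 ± 1.10 CPM in the vehicle, up by 0.97 ± 0.11 (edgeR adjusted p = 1.2e-09). KLF6, a zinc finger factor, rose by 0.50 under Schisandrae and fell by 0.30 under wortmannin (edgeR adjusted p = 1.2e-09 and 3.1e-05). MCL1, an inhibitor of cell death, rose by 0.48 under Schisandrae (adjusted p = 8e-09). CCN2, a matrix protein, and SGK1, a kinase, rose under wortmannin by 0.80 and 0.68 (edgeR adjusted p = 1.3e-07 and 1.3e-06). Under Schisandrae CCN2 also rose, by 0.37, and SGK1 was not called, at -0.21 (edgeR adjusted p = 0.015 and 0.18).

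Genes that report ERK output were tested for 13 of 14. Under high-dose Schisandrae 8 rose and 0 fell (median 0.31), against 8.4% and 7.25% of all genes. Under wortmannin 0 rose and 4 fell (median -0.13), against 16.4% and 16.2% of all genes. SPRY4, an inhibitor of the pathway, averaged 80.6 ± 9.87 CPM under Schisandrae against 45.0 ± 2.85 CPM in the vehicle, up by 0.84 ± 0.13 (edgeR adjusted p = 1.5e-06). The ERK phosphatases DUSP6 and DUSP5 rose by 0.77 and 0.89 (edgeR adjusted p = 1.5e-05 and 9.1e-05). PHLDA1, EPHA2 and ETV4 fell under wortmannin by 0.58, 0.49 and 0.20 (edgeR adjusted p = 1.8e-10, 4.8e-05 and 0.0037).

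AP-1 target genes were tested for 7 of 14, with 2 higher and 0 lower under high-dose Schisandrae (median 0.15). Of all genes 8.4% were higher and 7.25% lower there. Under wortmannin 0 were higher and 3 lower (median -0.50), against 16.4% and 16.2% of all genes. IL11 rose by 0.63 under Schisandrae (adjusted p = 0.034), and HMGA1, a chromatin protein, and PLAU, the plasminogen activator, fell by 0.61 and 0.63 under wortmannin (edgeR adjusted p = 1.9e-07 and 0.006).

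Of 18 MYC target genes 15 fell and 0 rose under wortmannin (median -0.50), where 16.2% of all genes fell and 16.4% rose. Under high-dose Schisandrae 3 rose and 2 fell (median -0.04), where 8.4% of all genes rose and 7.25% fell. In the direct contrast 16 of the 18 were higher under Schisandrae than under wortmannin, where 18.4% of all genes were higher and 17.3% lower. ODC1, the first enzyme of polyamine synthesis, averaged 176 ± 12.8 CPM under wortmannin against 288 ± 8.57 CPM in the vehicle, and the ribosome factors WDR43 and MRTO4 also fell, by 0.73 and 0.47 (edgeR adjusted p = 1.7e-16 and 2.8e-09). In the MYC network, 10 of 11 genes were tested, and edgeR and DESeq2 called 0 under Schisandrae, with 2 higher at an unadjusted p under 0.05. Under wortmannin MXD4, a MAX partner that represses, rose by 0.62 and MYCL by 1.42, and MAX fell by 0.27 (edgeR adjusted p = 8.7e-11, 8.3e-06 and 0.0057).

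Stress genes of ATF4 and ATF3 were tested for 9 of 10, with 5 higher and 0 lower under high-dose Schisandrae (median 0.41). Of all genes 8.4% were higher and 7.25% lower there. Under wortmannin 0 were higher and 2 lower (median -0.10), against 16.4% and 16.2% of all genes. For the other immediate early, ERK, AP-1 target and MYC target lists and these stress genes, DESeq2 and edgeR both called 0 where 0 is given, and 1 stress gene was higher under wortmannin at an unadjusted p under 0.05. ASNS, asparagine synthetase, rose by 0.50 ± 0.06 under Schisandrae (edgeR adjusted p = 7.4e-08). STC2, a secreted stress hormone, rose by 0.44 under Schisandrae and fell by 0.32 under wortmannin (edgeR adjusted p = 4.8e-09 and 3.7e-06), and PPP1R15A fell by 0.31 under wortmannin (adjusted p = 0.013).

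Most pairs of members had a positive correlation over the 20 group means, which share a cell line and scaling. The median Pearson r of log2 CPM over the 45 pairs was 0.579, with a range of -0.231 to 0.939, and 43 pairs were above 0. Without high-dose Schisandrae and wortmannin the median was 0.366 and 33 pairs were above 0. Every pair of FOSB, which has few reads, was then below 0, from -0.665 with FOS to -0.082 with FOSL1.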

How the data were processed

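The authors deposited 1 table of expected counts (estimated reads of a gene, often fractional) for all libraries, which per the labels' protocols came from a strand-specific kit and 100 bp paired reads. The submitters' processing notes list, without roles, RSEM 1.3.3, STAR 2.7.3a, Trim Galore 0.6.5 and FastQC 0.11.9, and as builds GRCh38 and hg38. For strand setting and annotation release, the entry is: not given in the sources used here. Expected counts were rounded to whole numbers. Groups came from the labels. Genes were kept with edgeR's filterByExpr by group (16517 genes), libraries were scaled with TMM, and 1 edgeR 4.0.16 quasi-likelihood model (R 4.3.3) with a term per group was fitted to all 60 libraries. Tests were 2-sided, with Benjamini-Hochberg adjustment across the tested genes and a threshold of 0.05, and log2 fold changes have the standard error of the fit. Totals ranged from 20.2 to 36.4 M counts, which leaves FOS and FOSB at few reads. Gene coordinates and overlaps follow GENCODE release 29, and promoters RefSeq. Correlations used log2(CPM + 0.5). The tests were also tested on simulated data.

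The members and gene lists were chosen with earlier results of these data known. Named genes are the members, the other tested AP-1 family genes, and of each further list the 3 with the smallest p against the vehicle under high-dose Schisandrae and under wortmannin, with the 3 genes most like each member in pattern. A gene that this rule names is not reported here. Same-numbered replicates did not correlate above 0.1 for all 3 pairs in any comparison of 2 groups, so numbers were not taken to pair libraries. High against low dose came close to that cut for Schisandrae (0.161, 0.091 and 0.141) and Zizyphi (0.172, 0.362 and 0.097). Alternatives were RLE scaling, no filter, a filter of 1 CPM in 30 libraries, replicate blocks, GC slope as a covariate, DESeq2 1.42.0, the libraries of a comparison alone, leaving out the 4 libraries of lowest GC slope and leaving out each library. Added after seeing the data were the block within a code set, the single-extract contrasts, the low doses against the vehicle and the difference of dose effects.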

Additional observations from a re-analysis of the deposited data

Results flagged for a closer look

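Schisandrae and Liriopis share a code set and doses, and the difference of their high against low dose effects was tested in the edgeR model. It passed the threshold for 7 of the 10 members, all with the larger effect under Schisandrae, where 2.69% of all genes were called in that direction. On the log2 scale the difference was 2.24 ± 0.48 for FOS (adjusted p = 0.0014), 1.56 ± 0.22 for EGR1 (1.6e-06) and 1.17 ± 0.25 for IER3 (0.0018). It was 1.05 ± 0.18 for ATF3 (adjusted p = 9.5e-05), 0.94 ± 0.14 for JUN (2.1e-06) and 0.76 ± 0.17 for JUNB (0.0017). FOSL1 reached 0.60 ± 0.18 (adjusted p = 0.047), a call lost on leaving out most single libraries, with 0.48 without low-dose Liriopis replicate 2 (adjusted p = 0.16). FOSB at 1.21 ± 0.41 (adjusted p = 0.074), IER2 and MYC did not pass. Liriopis itself moved no member between its doses, by edgeR or DESeq2 or at an unadjusted p under 0.05, and edgeR called 0 of all tested genes there.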

How the results depend on the processing

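Of 65 calls on members in 8 comparisons, 56 held under every alternative that gave an adjusted p, and 0 changed direction. DESeq2 gave no adjusted p for FOS in 5 comparisons and FOSB in 2. The fragile calls were those of FOS and IER2 under wortmannin, FOSL1 under Schisandrae against the vehicle, FOSB and MYC against Liriopis, MYC against the low doses, IER2 against the other high doses, and EGR1 and IER2 under wortmannin against the low doses. FOS under wortmannin had an adjusted p of 0.16 with no filter, 0.053 with the replicate block, 0.094 with DESeq2 and 0.084 in its 6 libraries alone. IER2 under Schisandrae against the vehicle was called with the replicate block (adjusted p = 0.037), with the GC slope (0.03) and without vehicle replicate 2 (0.018). The 12 calls in the other extract groups became 23 with no filter, 7 without the 4 libraries of lowest GC slope and 6 to 13 with 1 library left out, 6 of them without vehicle replicate 1. The 4 calls between doses of other extracts became 7 with no filter, 7 with the replicate block within a code set, 6 with the plain replicate block and 2 to 5 with 1 library left out, 2 without high-dose Aucklandiae replicate 2 or 3. The low-dose call became 0 without the 4 libraries and 0 to 1 with 1 left out. Against high-dose Aucklandiae leaving out 1 library gave 4 to 7 calls. Under the replicate block 9 members were called in Schisandrae against the vehicle and 6 under wortmannin. The correlations of same-numbered replicates were taken over all tested genes, so they do not settle whether single members follow the replicate number. JUN was lowest in replicate 1 in every extract group but medium-dose Aucklandiae, and under wortmannin it was lowest in replicate 3. Uncalled values changed sign: under wortmannin FOSB ranged from -0.454 to 0.176 with 1 library left out, ATF3 from -0.104 to 0.0073 (0.0073 without the 4 libraries), ATF2 from -0.082 to 0.0513 (0.0523 with the GC slope, 0.0513 without the 4 libraries) and BATF2 from -0.295 to 0.0301. JDP2 became -0.0005 with RLE, -0.0035 with no filter, -0.0611 with the GC slope, -0.0009 with DESeq2 and -0.0669 to 0.0468 with 1 library left out, and MAFK -0.0116 with the GC slope. JUNB against the low doses became -0.0535 with the GC slope, -0.0122 without the 4 libraries and -0.0217 to 0.0743 with 1 library left out. ATF2 under Schisandrae became 0.0462 without the 4 libraries and -0.0871 to 0.0462 with 1 library left out, and IER2 between Schisandrae and wortmannin 0.0353 with the GC slope. The cause was not tested. Depth limits FOS and FOSB most.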

Other observations

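Genes of EGF receptor signalling, which lies upstream of ERK, were tested for 8 of 10. Under high-dose Schisandrae 5 rose and 1 fell, where 8.4% of all genes rose and 7.25% fell. Under wortmannin 4 rose and 1 fell, where 16.4% of all genes rose and 16.2% fell. HBEGF, a ligand, averaged 3.5 ± 0.305 CPM under Schisandrae against 1.47 ± 0.569 CPM in the vehicle, up by 1.26 ± 0.19 on the log2 scale (edgeR adjusted p = 1.3e-06). TGFA, another ligand, rose by 0.40 under Schisandrae and by 0.29 under wortmannin (edgeR adjusted p = 4.8e-07 and 7e-05), and ERBB2 fell by 0.23 under Schisandrae (edgeR adjusted p = 0.00082). Under wortmannin the receptor ERBB3 rose by 0.53 and the ligand AREG fell by 1.29 (edgeR adjusted p = 1.5e-12 and 3.2e-09). ERBB3 also rose under Schisandrae, by 0.18, and ERBB2 rose under wortmannin, by 0.13 (edgeR adjusted p = 0.0054 and 0.045). Of the 8 genes of SRF, the ternary complex factors and CREB, all tested, edgeR and DESeq2 called 0 under Schisandrae, where 1 was higher and 1 lower at an unadjusted p under 0.05, and 4 fell under wortmannin. SRF, CREB1 and ELK1 fell there by 0.14, 0.22 and 0.22 (edgeR adjusted p = 0.012, 0.0052 and 0.03).

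Over the 20 group means of log2(CPM + 0.5), genes with a pattern like that of JUN included UBASH3B (Pearson r = 0.953) and TSPAN14 (0.95). FOSL1 was most like ZFP36L1 (0.947), HMGA1 (0.943) and SPATA2 (0.926), IER3 like SPRY4 (0.927), PVR (0.926) and ETS2 (0.912), and EGR1 like UBASH3B (0.944), MTCL1 (0.924) and DENND4A (0.902). MYC was most like AUP1 (0.918), AIMP2 (0.885) and ETS2 (0.882), and JUNB like GDF15 (0.906), TMC6 (0.882) and TNFRSF10B (0.875). ATF3 was most like TMC7 (0.853), ICAM1 (0.847) and MAFF (0.833). For the scarce FOS and FOSB the closest were MTCL1 (0.898), PTGFRN (0.878) and CEMIP (0.876), and TGFBR3 (0.858), TTC39B (0.842) and AFAP1 (0.805), and IER2 was closest to DNAJC18 (0.871), XYLT2 (0.836) and ABCC10 (0.828). All groups share a cell line and scaling, and each r is a description.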
